A study of Arabidopsis thaliana with 28 samples.

Results

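Narrow domains of acetylated lysine 9 of histone H3 (H3K9ac) were defined as intervals of at most 400 bp in the domain list of PHILO replicate 1 labelled 10M reads, each overlapping an interval of at most 400 bp in replicate 2. They were thus selected on measured values, the width and presence of the domain in these libraries. There were 374 such domains among the 15181 domains of 10M replicate 1 on chromosomes 1 to 5. Of these, 349 were 400 bp wide and 25 were 200 bp wide, and 350 had identical borders in both libraries. Replicate 1 held 685 intervals of this width, of which 230 overlapped only a wider domain of replicate 2 and 81 overlapped none. The comparison set was the 14404 wider domains shared by both 10M libraries, of which 2148 were 600 bp wide, 1 step above the limit on the 200 bp grid of the lists.

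H3K9ac is a modification of open chromatin at transcribed genes. In plants it is typically found at the beginning of the transcribed part of active genes, where acetylation loosens the contact between the histone tail and DNA and is read by proteins that promote transcription. Histone acetyltransferases write the mark and histone deacetylases remove it.

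All libraries came from untreated 10-day-old whole seedlings of Arabidopsis thaliana Col-0, with the same H3K9ac antibody, and each of the 14 groups had 2 replicates. PHILO is a plant chromatin immunoprecipitation (ChIP) workflow scaled down to small volumes. It was run at 0.5M, 1M and 2M reads as well as at 5M and 10M, after 10, 12 or 14 cycles of PCR, from 1 mg tissue, and from 500K, 100K or 20K purified nuclei. eChIP is an earlier plant ChIP workflow with fewer steps before the chromatin is sheared, and its library titles also carry the word PHILO. CUT&Tag cuts and tags marked chromatin in place with an antibody-guided transposase. Whole seedlings hold many cell types, so fewer cells with the mark and less mark per cell cannot be told apart. The depth recovered from the lists ranged from 3.24% of the 10M mean in a 0.5M library to 91.7% in an eChIP library. Labels or methods gave no batch.

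Sequences of 8 narrow domains are shown because they stand for the extremes described below. These are domains found by every library, by none outside 10M, by eChIP but not CUT&Tag, or, outside 10M, by CUT&Tag alone. Domains at a microRNA gene and a WRKY gene are also among the 8. Each is the central 300 bases in TAIR10.1 (RefSeq), read 5′ to 3′ on the strand of the gene, or on the plus strand outside genes. Capitals mark bases of annotated coding exons. The places are AT2G41810 chr2:17439651-17439950 (minus strand), AT5G46600 chr5:18907851-18908150 (minus strand), UNG chr3:6412651-6412950 (minus strand), AT5G01320 chr5:131251-131550 (minus strand), the interval nearest AT3G42727 chr3:14811251-14811550 (plus strand), cwINV4 chr2:15176251-15176550 (minus strand), MIR171c chr1:22930051-22930350 (minus strand), WRKY41 chr4:6760451-6760750 (plus strand).
AT2G41810: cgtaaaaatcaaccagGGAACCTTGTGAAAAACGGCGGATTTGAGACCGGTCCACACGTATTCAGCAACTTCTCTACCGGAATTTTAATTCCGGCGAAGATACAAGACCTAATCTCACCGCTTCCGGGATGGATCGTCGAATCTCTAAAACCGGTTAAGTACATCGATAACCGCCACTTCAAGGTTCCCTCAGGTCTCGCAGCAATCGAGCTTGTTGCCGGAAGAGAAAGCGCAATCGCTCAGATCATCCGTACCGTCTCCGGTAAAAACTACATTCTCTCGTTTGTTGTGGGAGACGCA
AT5G46600: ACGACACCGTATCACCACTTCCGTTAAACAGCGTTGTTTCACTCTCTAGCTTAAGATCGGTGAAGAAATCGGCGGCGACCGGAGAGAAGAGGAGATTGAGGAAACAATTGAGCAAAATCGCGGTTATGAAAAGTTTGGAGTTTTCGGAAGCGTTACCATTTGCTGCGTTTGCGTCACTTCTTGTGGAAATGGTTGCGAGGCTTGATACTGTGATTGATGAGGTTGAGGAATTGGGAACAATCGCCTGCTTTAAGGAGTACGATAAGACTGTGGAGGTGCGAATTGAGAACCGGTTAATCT
UNG: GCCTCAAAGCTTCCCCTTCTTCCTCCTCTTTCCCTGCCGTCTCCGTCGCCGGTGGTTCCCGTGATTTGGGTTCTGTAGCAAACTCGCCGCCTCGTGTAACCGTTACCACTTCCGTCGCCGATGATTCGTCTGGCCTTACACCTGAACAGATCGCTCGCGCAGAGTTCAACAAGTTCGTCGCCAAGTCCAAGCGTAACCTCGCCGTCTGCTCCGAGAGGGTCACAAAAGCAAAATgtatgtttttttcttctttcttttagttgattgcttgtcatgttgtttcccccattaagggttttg
AT5G01320: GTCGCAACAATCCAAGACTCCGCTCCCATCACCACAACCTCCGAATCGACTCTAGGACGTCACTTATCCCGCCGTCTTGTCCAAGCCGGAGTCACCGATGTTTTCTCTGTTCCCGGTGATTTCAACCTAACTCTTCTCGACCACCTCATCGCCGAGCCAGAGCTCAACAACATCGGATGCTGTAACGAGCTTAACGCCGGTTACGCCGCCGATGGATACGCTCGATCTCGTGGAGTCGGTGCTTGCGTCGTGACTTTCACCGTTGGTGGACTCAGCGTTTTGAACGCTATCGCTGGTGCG
Outside genes, nearest AT3G42727: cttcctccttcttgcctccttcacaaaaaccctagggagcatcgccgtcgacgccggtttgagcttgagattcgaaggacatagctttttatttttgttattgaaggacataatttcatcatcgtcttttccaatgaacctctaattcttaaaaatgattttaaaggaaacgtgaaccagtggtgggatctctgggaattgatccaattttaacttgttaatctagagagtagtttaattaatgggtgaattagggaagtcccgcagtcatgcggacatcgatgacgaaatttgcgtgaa
cwINV4: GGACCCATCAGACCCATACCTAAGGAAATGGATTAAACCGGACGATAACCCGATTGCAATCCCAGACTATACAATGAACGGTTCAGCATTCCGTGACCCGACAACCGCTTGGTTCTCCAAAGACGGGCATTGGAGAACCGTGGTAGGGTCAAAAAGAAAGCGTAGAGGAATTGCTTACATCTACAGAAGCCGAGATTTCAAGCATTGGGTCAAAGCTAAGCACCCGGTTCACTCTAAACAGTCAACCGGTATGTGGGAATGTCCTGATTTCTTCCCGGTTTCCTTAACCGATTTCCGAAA
MIR171c: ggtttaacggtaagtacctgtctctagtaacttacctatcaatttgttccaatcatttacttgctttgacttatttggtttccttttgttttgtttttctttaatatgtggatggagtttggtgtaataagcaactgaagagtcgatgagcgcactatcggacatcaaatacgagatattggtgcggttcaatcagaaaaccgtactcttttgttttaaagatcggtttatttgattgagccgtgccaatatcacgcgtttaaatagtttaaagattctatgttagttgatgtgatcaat
WRKY41: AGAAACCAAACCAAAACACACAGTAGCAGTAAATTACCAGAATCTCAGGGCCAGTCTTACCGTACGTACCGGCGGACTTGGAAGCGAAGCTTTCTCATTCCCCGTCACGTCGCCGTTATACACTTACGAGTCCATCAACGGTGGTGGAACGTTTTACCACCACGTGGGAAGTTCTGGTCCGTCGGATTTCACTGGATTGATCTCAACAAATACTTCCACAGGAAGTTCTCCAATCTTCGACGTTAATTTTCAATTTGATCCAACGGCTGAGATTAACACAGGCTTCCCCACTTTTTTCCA
The stretch of AT2G41810 had 284 coding bases and 48.7% GC, and that of AT5G46600 was coding throughout with 46.0% GC. The stretch of AT5G01320 reached 55.7% GC, against 40.3% in the interval outside genes and 35% at MIR171c. UNG crossed from a coding exon into an intron, with 234 coding bases.

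The values that chose the domains are given as a description. In 10M replicate 1, the ChIP count of a narrow domain was 48 at the lowest, 92 at the median and 341 at the highest. The IgG count had a median of 27, and the deposited log2 fold change over IgG ran from 0.71 through a median of 1.81 to 3.89. Just inside the limit, the 349 domains of 400 bp had a median count of 94.0 and a median log2 fold change of 1.80. Just outside, the 2148 shared domains of 600 bp had 185 and 2.07. The narrow domains held fewer reads and a lower fold at the median than the next class in width.

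Narrow domains lay inside genes, close behind the gene start. Of the 374, 76.7% lay in a gene without touching its start or end, 11.8% covered a gene start, 5.88% a gene end and 5.61% lay outside genes. Among 600 bp domains these shares were 72.0%, 24.3%, 2.42% and 1.35%, and among all non-overlapping 400 bp windows of the 5 chromosomes 51.5%, 12.1%, 9.15% and 27.2%. Narrow domains thus covered a gene start about as often as a window placed without regard to the mark, and lay outside genes far less often. The centre fell in a coding exon in 58.6% of narrow domains, in 49.5% of 600 bp domains and in 28.4% of windows. An intron held the centre in 17.6%, a 5′ UTR in 7.75% and a 3′ UTR in 1.60% of narrow domains.

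Of the 314 narrow domains assigned to a protein-coding gene that they overlap, 251 (79.9%) were centred 1 to 500 bp after the gene start. The median distance of the centre was 314 bp, with quartiles of 262 and 445 bp. The upstream border lay a median of 119.5 bp after the start, against 71.0 bp for 600 bp domains and 43.0 bp for 800 bp domains. At the median, the border of the narrower class lay farther behind the start. The centre did not, at 314 bp for narrow and 371 bp for 600 bp domains. At the same centre, a shorter interval has its upstream border farther behind the start, so the width itself enters the order of the borders. A further 36 narrow domains were centred more than 1000 bp after the start, and 19 of them more than 2000 bp. In 11 of these 19, the same gene held another domain shared by both 10M libraries, compared with 19 of the 251 near the start. The contrast was alike among 600 bp domains, with 26 of 42 beyond 2000 bp and 115 of 1681 near the start. The centre lay less than 500 bp before the gene end in 54 narrow domains (17.2%), whose genes had a median length of 801 bp, and in 6.07% of 600 bp domains.

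**Figure D1:**
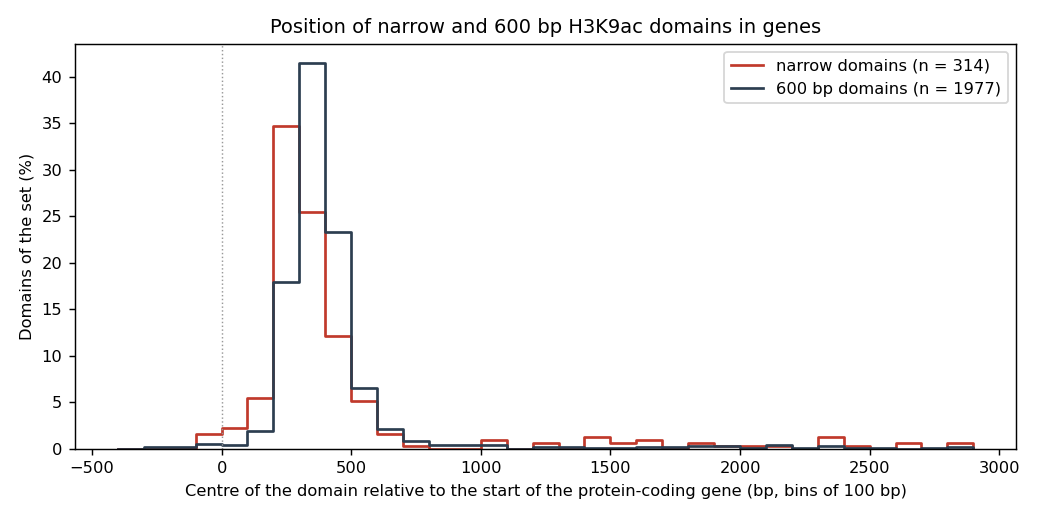
Distance of the domain centre from the start of the protein-coding gene in bp (x axis, bins of 100 bp) and share of the set in % (y axis), for 314 narrow domains (red line) and 1977 domains of 600 bp (dark line). Both sets peak within 500 bp after the start, and domains beyond 3000 bp are not drawn.

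The protein-coding gene had a median length of 2404 bp for narrow domains, 2678 bp for 600 bp domains and 2538 bp for all wider domains. The median over all annotated protein-coding genes was 2078 bp, below each of these. Of the 27444 annotated protein-coding genes, 334 (1.22%) overlapped a narrow domain, and 288 of these overlapped no wider shared domain. For most of these genes, only narrow intervals were called in both 10M libraries.

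The median GC content of narrow domains was 41.9%, against 39.7% in 600 bp domains, 39.3% in all wider domains and 36.5% in the windows. Since coding exons are richer in GC than the rest of a gene, domains centred in a coding exon were compared on their own. Only the centre was matched, and GC was counted over the whole domain, so coding content was not held equal between widths. Over all domains, the median share of coding bases was 54.5% in narrow and 42.1% in 600 bp domains. There the median was 44.5% for 219 narrow domains and 46.5% for the 15 of 200 bp, and 42.0%, 41.0% and 41.4% for domains of 600, 800 and 1000 to 1400 bp. It was 40.6% for 1600 to 2800 bp, 39.1% for 3000 bp or more and 40.8% for windows. The narrow domains stood highest and the widest lowest, with overlapping quartiles between neighbouring classes. With the centre in an intron, the medians of narrow and 600 bp domains were 38.0% and 38.2%. As a description, the correlation of GC content with the number of libraries that found a narrow domain was -0.05 (Pearson) and -0.05 (Spearman) over the 374 domains, which share the same libraries.

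**Figure D2:**
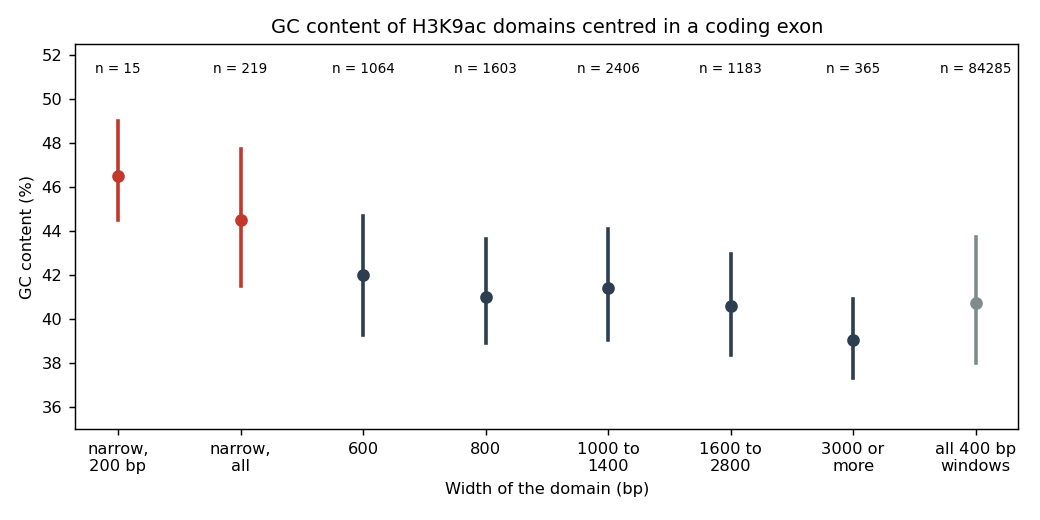
GC content in % (y axis) of domains centred in a coding exon, by width in bp (x axis), with the number of domains above each class. Points are medians and lines run from the lower to the upper quartile. Narrow domains (red, 44.5%) lie above wider domains (dark) and all 400 bp windows (grey, 40.8%), and the y axis starts above 0.

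Some short sequences were counted in the 349 narrow domains of 400 bp, on both strands, beside all 400 bp windows. CTTCTTC was present in 41.8% of narrow domains and 21.7% of windows. The G-box CACGTG, bound by bHLH and bZIP factors, was present in 8.02% and 4.32%. TATAAA, the core of the TATA box, was present in 22.9% and 42.8%, and GGCCCA in 3.72% and 5.97%. With both sets limited to centres in coding exons, the shares were 45.6% and 29.1% for CTTCTTC, 10.8% and 4.04% for CACGTG, 19.6% and 25.8% for TATAAA, and 5.39% and 4.36% for GGCCCA. A match is a string of letters and shows no bound factor. The windows were not matched for distance from the gene start or for GC content. Of those assigned to a protein-coding gene, 18.8% of windows and 79.9% of narrow domains were centred 1 to 500 bp after the start. The parts of this position and of GC content in the shares were not tested. Wider domains were not searched, so no share can be called particular to narrow domains. Repeated sequence was rare. In 10 narrow domains (2.67%), more than 50% of the 40-mers occurred elsewhere in the 5 chromosomes, against 1.58% of 600 bp domains and 5.83% of windows, and reads there could have come from a copy.

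A domain was counted as found where a domain of a library overlapped it by at least 1 bp. In the depth series, narrow domains were found in 3.21% and 6.68% of cases in the 0.5M replicates, 12.3% and 21.7% at 1M, 41.4% and 30.7% at 2M, and 48.7% and 68.4% at 5M. The means were 4.95% ± 2.45 for 0.5M, 17.0% ± 6.65 for 1M, 36% ± 7.57 for 2M and 58.6% ± 13.9 for 5M (SD, n = 2 each). Of the 600 bp domains, the 0.5M replicates found 17.0% and 33.6%, the 1M replicates 52.1% and 64.7%, the 2M replicates 82.4% and 75.9% and the 5M replicates 87.3% and 93.9%. The 5M replicates found 96.3% and 98.0% of all wider domains. In each group, both replicates found more of the 600 bp domains than either found of the narrow ones. At 0.5M, narrow domains were found less often than the 10.6% of all 400 bp windows that a domain touched in either replicate. At 1M, replicate 1 lay below its windows (15.4%) and replicate 2 above (14.9%), so detection at these depths cannot be told from the covered length. With 2 replicates a group, an exact permutation test between 2 groups cannot go below p = 0.333, and no such test was run.

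After 10 PCR cycles, 22.5% and 36.1% of narrow domains were found, after 12 cycles 42.8% and 25.1%, and after 14 cycles 41.7% and 39.8%. The replicates of 10 and 12 cycles overlapped in range, so no order with the cycle number was read from these values. The recovered depth of the 14-cycle libraries was 44.5% and 44.1% of the 10M mean, above the 27.4% and 25% of the 10-cycle libraries, and its part in the result was not tested.

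eChIP found 50.8% and 57.2% of narrow domains, 1 mg tissue 59.1% and 74.1%, 500K nuclei 46.8% and 72.7%, and 100K nuclei 53.5% and 67.9%. Each of these 4 groups overlapped with 5M. Both eChIP replicates lay below both 1 mg tissue replicates, and the other pairs among the 4 overlapped. 20K nuclei stood below them with 15.2% and 17.4%, beside 15.8% and 16.4% of windows, and 72.9% and 78.4% of wider domains. The recovered depth of the 20K libraries, 45.8% and 49.3%, was close to the 45.8% and 53.9% of the 5M libraries, which found 48.7% and 68.4%. The shares of the 2 groups did not overlap at this like depth. CUT&Tag found 36.1% and 51.1%, at depths of 33.9% and 74.2%, while its domains touched 24.6% and 30.6% of windows, the highest shares of any group.

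**Figure D3:**
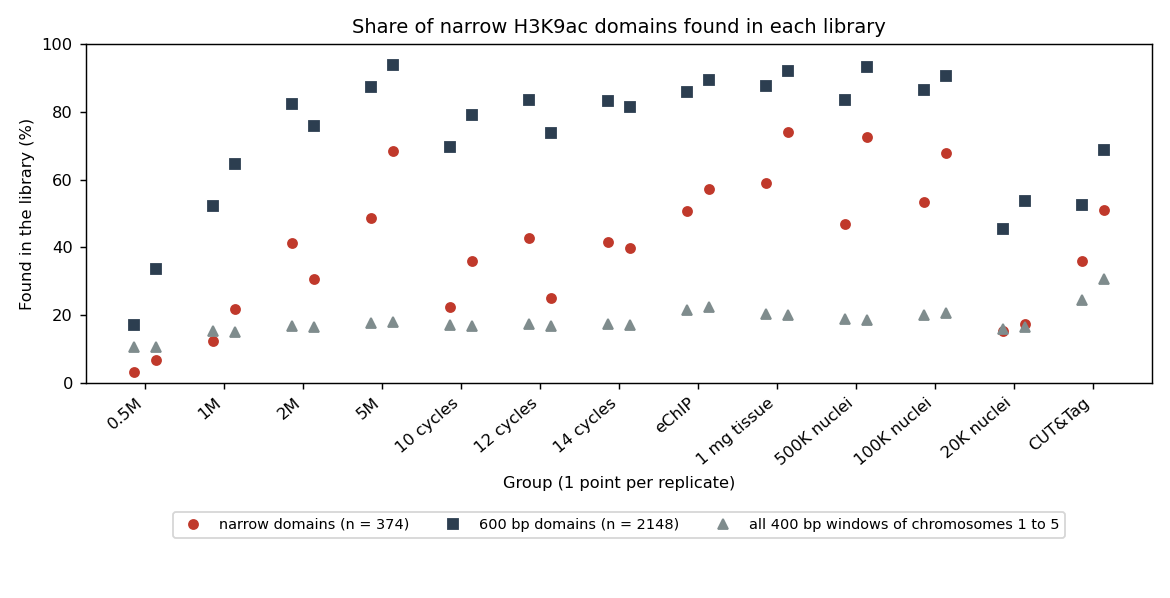
Share found in % (y axis) in each library, by group (x axis, 1 point per replicate), for 374 narrow domains (red circles), 2148 domains of 600 bp (dark squares) and all 400 bp windows (grey triangles). Narrow domains lie below 600 bp domains in all 26 libraries and lie below the windows in 4 of them, both 0.5M libraries, 1M replicate 1 and 20K nuclei replicate 1.

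Where a narrow domain was found again, the share found at a narrow width varied between groups, within PHILO too. In the 5M libraries, 70.9% and 80.1% of those found were again at most 400 bp wide, and in the cycle series between 67.0% and 82.6%. The share was 25% and 56% at 0.5M, of only 12 and 25 domains found, then 60.9% and 79.0% at 1M and 79.4% and 76.5% at 2M. It was 55.2% and 63.2% in 1 mg tissue and 60% and 69.5% in 500K nuclei. eChIP had 35.3% and 35.5%, 100K nuclei 47.5% and 45.3%, and 20K nuclei, which lay at the level of eChIP, 35.1% and 40%. In CUT&Tag 5.19% and 5.76% were found at this width, and the domain that found them had a median width of 1600 bp in both replicates. In 49 and 75 cases, that CUT&Tag domain also covered another domain of 10M replicate 1. Most narrow domains counted as found by CUT&Tag thus lay under a wide CUT&Tag domain. The narrow domains found by both CUT&Tag replicates had a next domain at a median distance of 2000 bp, against 3000 bp for those found by neither, and the median gene length was 2054 against 2601 bp.

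**Figure D4:**
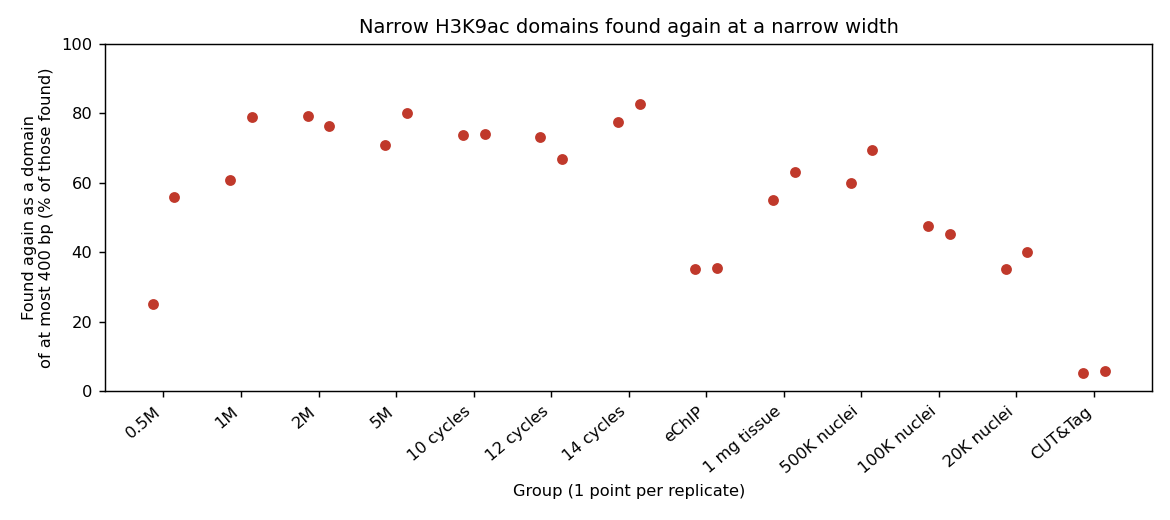
Share of the narrow domains found in a library that were found by a domain of at most 400 bp, in % (y axis), by group (x axis, 1 point per replicate). CUT&Tag lies at 5.19% and 5.76%, and the 5M and cycle libraries lie between 67.0% and 82.6%.

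Single narrow domains ranged from found by every library to found by none outside 10M. The median number of the 26 other libraries that found a narrow domain was 9, with quartiles of 4 and 16, against 25 for wider and 22 for 600 bp domains. There were 3 found by all 26 (0.802%), against 41.0% of wider and 7.08% of 600 bp domains, and 18 found by none (4.81%). Without the 6 libraries of the 0.5M, 1M and 20K nuclei groups, a choice made after seeing the data, 20 were found by all 20 remaining libraries. The number of libraries rose with the 10M ChIP count of the domain (Pearson 0.785, Spearman 0.809 over 374 domains) more closely than with the fold change (0.603 and 0.558). These are descriptions, since the 10M values chose the domains.

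**Figure D5:**
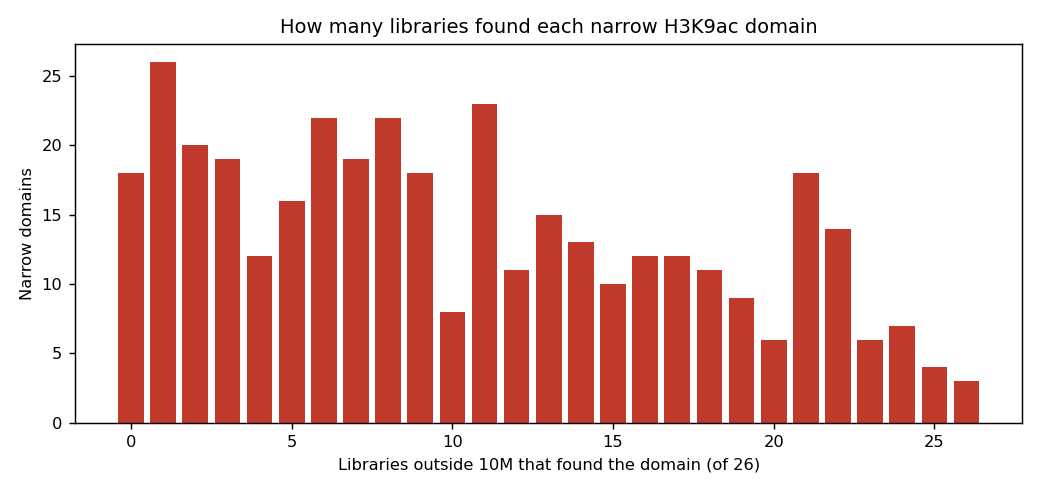
Number of libraries outside 10M, of 26, that found a narrow domain (x axis) and number of narrow domains (y axis, bars). The bars spread over the whole range, from 18 domains found by none to 3 found by all 26.

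The 3 domains found by every library were at AT2G41810, AT5G46600 and EDA6. AT2G41810, annotated as a DUF642 protein, had its domain 1615 bp after the start of a 2154 bp gene. Its deposited log2 fold change over IgG was 1.34 at the lowest, 2.96 at the median and 4.27 at the highest of the 26 libraries. AT5G46600 belongs to the aluminum-activated malate transporters, a family of anion channels. Its domain was centred 2837 bp after the start of a 3200 bp gene, and its log2 fold change ran from 1.05 through 2.53 to 3.17. EDA6, named after an arrest of embryo sac development, had a domain 288 bp after its start with 0.93, 2.41 and 2.89. In all 3, the median width was 400 bp, while CUT&Tag gave 1000 and 1200 bp at AT2G41810, 1800 bp in both replicates at AT5G46600 and 2200 and 1600 bp at EDA6. The first 2 domains, shown above as sequence, thus lay far from the gene start, unlike most narrow domains.

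Of the 18 found by no other library, 6 with the highest 10M counts are named. UNG, a uracil DNA glycosylase that removes uracil from DNA, had ChIP counts of 79 and 100 in the 10M replicates, with log2 fold changes of 1.61 and 1.80. The alpha/beta-hydrolase AT5G17780 had 84 and 93, and WNK6, a protein kinase of the WNK family, 74 and 102. DCF, an acyltransferase that acts in cutin formation, had 83 and 88. AT5G01320, a pyruvate decarboxylase gene with the stretch of highest GC printed above, had 72 and 99, with 0.71 and 1.02 on the log2 scale, the lowest fold of all 374 in replicate 1. Of the 40-mers in its domain, 34.3% occur elsewhere, so some of its reads could have come from a copy. AT1G63330, a pentatricopeptide repeat gene, had 82 and 83, and 98.9% of its 40-mers occur elsewhere, so its counts are uncertain. In 5 of these 6, the centre lay 196 to 395 bp after the gene start, and in DCF 657 bp.

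Both eChIP replicates found 176 and both CUT&Tag replicates 128, and 69 were in both sets, which is 39.2% of the first and 53.9% of the second. Both eChIP and neither CUT&Tag replicate found 66 (17.6% of narrow domains), and 43 (11.5%) were the reverse. Over 600 bp domains these shares were 22.0% and 2.47%, and over all wider domains 8.37% and 1.48%. Of the 600 bp domains in both CUT&Tag replicates, 91.3% were also in both eChIP replicates. These shares were not tested against each other. Of the 66, the largest eChIP fold was at an interval outside genes, whose nearest gene start is that of the pseudogene AT3G42727. It was found by 23 of 26 libraries, and its log2 fold change was 3.03 and 2.94 in eChIP. The next were AT3G44570, annotated as a retrotransposon protein, with 2.4 and 2.57, AT2G21780 with 2.01 and 2.64, and the mitochondrial carrier AT1G74240 with 2.49 and 2.01. These were found by 22, 21 and 16 libraries, so CUT&Tag lacked domains that most ChIP libraries called.

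Of the domains in both CUT&Tag replicates, the 4 found by the fewest others were found, outside 10M, by CUT&Tag alone. They were at AT1G59660, a nucleoporin autopeptidase gene, with CUT&Tag log2 fold changes of 2.75 and 2.06, at AT1G08120 with 2.28 and 1.82, and at AT5G02680, annotated as a methionine-tRNA ligase, with 1.78 in both. The last was cwINV4, a cell wall invertase that splits sucrose outside the cell, with 1.63 and 1.39. The finding domain was 400 bp wide in both replicates at AT1G59660, and 600 and 1400 bp wide at cwINV4.

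By gene class, 84.0% of narrow domains were assigned to protein-coding genes, against 92.9% of wider domains. Long non-coding RNA genes were assigned 5.88% of narrow and 3.46% of wider domains, and pseudogenes of both kinds 7 narrow domains. Of the genes in each list, narrow domains overlapped 47 of 4288 other non-coding RNA genes, 8 of 4843 pseudogenes, 1 of 369 small nuclear and nucleolar RNA genes, 1 of 326 microRNA genes and none of 625 tRNA genes. Over all genes the share was 1.03%. Among protein-coding lists, narrow domains overlapped 1 of 80 SAUR genes, 1 of 71 WRKY genes, 1 of 49 ERF and DREB genes and 1 of 64 CLE and RALF peptide genes, near the 1.22% of all protein-coding genes. They overlapped 0 of 24 histone, 0 of 12 JAZ and 0 of 16 seed storage and oleosin genes. All 53 cytosolic ribosomal protein genes and all 48 photosystem and antenna genes overlapped wider domains and no narrow one. Of all protein-coding genes, 61.0% overlapped a wider domain. At a share of 1.22%, lists this short can hold no narrow domain without differing from all genes, so nothing is read from the 0 counts.

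AT3G00580, an uncharacterised RNA gene, had the highest narrow count, with 341 and 359 reads in the 10M replicates, and was found by 25 of 26 libraries, all but CUT&Tag replicate 1. Its log2 fold change was 1.53 at the lowest, 3.90 at the median and 4.75 at the highest. The long non-coding RNA gene AT3G01425 was also found by 25, all but 0.5M replicate 2. The domain at U2.3, a copy of the U2 RNA of the spliceosome, was found by 11 and overlaps a coding exon of another gene. MIR171c is the precursor of a microRNA that restrains GRAS transcription factors. Outside 10M, its domain was found by CUT&Tag replicate 1 alone, inside a CUT&Tag domain of 11000 bp. The transcribed pseudogene AT5G03377 was found by 19 libraries, and AT3G20978, an RNA gene over a pseudogene, by 17. The auxin-responsive SAUR gene AT4G34800 was found by 17, with a log2 fold change from 0.69 to 1.87. WRKY41, a transcription factor gene of the WRKY family, was found by 17 libraries but by neither eChIP replicate, and its domain lay at the gene end, 1503 bp after the start. TDR1, an AP2/ERF-type gene, was found by 11 and the peptide gene CLE12 by 5. Counting did not use strand, so overlapping genes could not be separated.

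ChIP counts were compared between groups where all 4 libraries had a domain with identical borders, which leaves few narrow domains and none that a method missed. edgeR's quasi-likelihood test with Benjamini-Hochberg adjustment over all such intervals was used throughout. Of 740 intervals of eChIP and 5M, 40% were called, 24.2% lower and 15.8% higher in eChIP. Of the 20 narrow domains among them, 5 were called, 4 lower and 1 higher. Their median log2 difference was -0.05, against 0.01 over all 740. The share of called narrow domains was thus not above that of all intervals. Levels are given in CPM, the count scaled to the summed counts of the shared intervals, adjusted by the normalisation factors (TMM) of edgeR. AT5G46600 had 579 and 593 CPM in eChIP and 1020 and 919 in 5M, and fell by 0.72 ± 0.12 (SE) on the log2 scale (edgeR adjusted p = 7.5e-08). AT3G00580 had 761 and 796 against 1160 and 1120, and fell by 0.54 ± 0.11 (edgeR adjusted p = 1.15e-05). The groups did not overlap in either. The interval nearest AT2G21655, a gametogenesis-related gene, and that of AT2G41810 fell by 0.56 and 0.35 (edgeR adjusted p = 0.00111 and 0.00938). AT5G09435, an RNA gene, rose by 0.54 (edgeR adjusted p = 0.00981), with 412 and 394 CPM against 283 and 270 CPM. With the library sizes recovered from the lists, the median of all intervals moved to -0.53, and AT5G09435 to 0.00. Under that scaling 626 intervals were lower and 1 higher, and 14 of the 20 narrow domains were lower and none higher, so these changes are relative to the other shared intervals. Without replicate 2 of 5M, 3 of the 20 were called, as AT2G41810 (edgeR adjusted p = 0.277) and AT5G09435 (edgeR adjusted p = 0.103) were lost. AT2G41810 was also lost without replicate 2 of eChIP (edgeR adjusted p = 0.0948), and the interval nearest AT2G21655 without replicate 1 of 5M (edgeR adjusted p = 0.0551). DESeq2 called 2 of the 20, AT5G46600 and AT3G00580.

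For 1 mg tissue against 5M, 25.6% of 1615 intervals were called, 8.3% higher and 17.3% lower in 1 mg tissue. Of 38 narrow domains, 4 were called, 2 in each direction. AT2G21780 had 300 and 359 CPM in 1 mg tissue and 224 and 230 in 5M, and rose by 0.53 ± 0.13 (SE; edgeR adjusted p = 0.00191). AT5G22788, a non-coding RNA gene, rose by 0.46 (edgeR adjusted p = 0.0288), while the interval near AT2G21655 and that of AT5G46600 fell by 0.42 and 0.28 (edgeR adjusted p = 0.021 and 0.0414). The comparisons share the 5M libraries. DESeq2 called none of the 38, 1 of them at an unadjusted p under 0.05. Leaving out replicate 1 of 1 mg tissue left 2 calls, and leaving out its replicate 2 or replicate 1 of 5M left 1. The median over the 38 was 0.09, against 0.02 over all intervals and -0.15 over all with recovered library sizes. With these sizes, 17 intervals were higher and 530 lower, and 1 narrow domain was higher and 4 lower. AT5G22788 then lost its call (0.29, edgeR adjusted p = 0.193). Its call was also lost whenever a replicate was left out, where the difference was 0.40 to 0.51.

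For 20K against 500K nuclei, 9.18% of 207 intervals were called, 4.83% as higher in 20K nuclei, and 1 of 7 narrow domains was called higher. It was in AT3G11860, annotated with a sterile alpha motif, which had 2550 and 1770 CPM in 20K and 1040 and 1280 in 500K nuclei. It rose by 0.87 ± 0.17 (SE; edgeR adjusted p = 0.0179). The call was lost without replicate 1 of 20K nuclei (0.59, edgeR adjusted p = 0.269), without replicate 1 or 2 of 500K nuclei (0.73 and 1.04, edgeR adjusted p = 0.0624 and 0.0681) and in DESeq2 (0.89, adjusted p = 0.136), where the difference stayed positive. With recovered library sizes, it moved to -0.06 and the median of all intervals to -0.92. Under that scaling 199 intervals were lower and 3 higher in 20K nuclei, and 6 of the 7 narrow domains were lower and 0 higher. For 14 against 10 cycles, 0% of 1174 intervals were called by edgeR or DESeq2, and 0 of 30 narrow domains. At an unadjusted p under 0.05 were 62 intervals and 2 narrow domains in edgeR, and 0 in DESeq2. With recovered library sizes, 61 intervals were called, all lower after 14 cycles, and 2 of the 30 narrow domains were among them. The medians were then -0.19 over all intervals and -0.28 over the 30. CUT&Tag and 5M shared only 14 identical intervals, none at a narrow domain, of which 50% were called.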

How the data were processed

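H3K9ac domain lists of 28 libraries in 14 groups of 2 were analysed. Groups came from the sample titles. The authors aligned reads to TAIR10 with Bowtie2 and called domains per library with epic2 against a shared IgG control. The submitters' processing notes name SICER 0.0.52 and deepTools 3.5.2. Window, gap, FDR limit and duplicate handling are not given in the sources used here. The authors deposited whole-number counts of ChIP and IgG reads per domain and the log2 fold change of both after scaling to library size. The deposited p-value, FDR and score entered no result. Relative depth was recovered from the deposited counts and log2 fold changes, which gave the same library ratio for all domains of a list to within 2.66e-15. Counting error is the only error these values cover.

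The narrow domains and gene lists were chosen with earlier results of these data known. Place and GC came from the RefSeq annotation of TAIR10.1, whose chromosome names and lengths were checked against the lists. The gene of a domain was the overlapped gene whose start lay nearest the centre, or the nearest start outside genes. The list of transposable element genes matched 0 annotated genes. Named domains were those found by all 26 other libraries (at most 8 by mean fold), the 6 found by fewest with the highest 10M count, 4 found by eChIP and not CUT&Tag, 4 found by CUT&Tag and fewest others, up to 2 per gene list, and those with the smallest p called in each count comparison. In the eChIP comparison, AT2G21655 and AT2G41810 were named after their values were seen.

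Counts were tested with edgeR 4.0.16 (TMM, quasi-likelihood) in R 4.3.3, on intervals with identical borders in 4 libraries, and with DESeq2 1.42.0 as an alternative. The test was also run on simulated counts, drawn independently for each sample and more variable than counting noise. That run does not cover replicates that vary less than counting noise. In 11 of 14 groups, replicate counts at identical borders varied less than counting noise (variance ratio 0.757 to 0.934), as did 35 of 52 pairs across depth or cycle groups, so a ratio under 1 did not mark replicates of 1 group. No group holds another pair for comparison. The replicates were kept as separate samples, as labelled, and the p-values may be too small. The labels give no separate cultures, so p-values measure the spread between these samples. Alternatives covered width, reference library, fold, overlap, library scaling, count minimum, left-out replicates and the replicate block.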

Additional observations from a re-analysis of the deposited data

How the results depend on the processing

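The number of narrow domains was within 1.5 times under every alternative except a limit of 200 bp, which left 10. With those 10, the share found was 0% at 0.5M, 5% at 1M, 20% at 2M, 30% at 5M, 15% after 12 cycles, 25% after 14 cycles, 35% in eChIP, 45% in 1 mg tissue, 40% in 100K nuclei, 10% in 20K nuclei and 25% in CUT&Tag. Of these 10, 50% lay inside genes, 20% at a gene start, 0% at a gene end and 30% outside genes, with a median GC of 44.8% and a median gene length of 1647 bp. Counting only domains with a log2 fold change of at least 1 gave 39.4% after 14 cycles, 47.6% in eChIP, 11.9% in 20K nuclei and 32.6% in CUT&Tag. Requiring the whole domain to be covered gave 39.0% after 14 cycles. By its centre alone, 92.5% lay inside genes, and a start or end was at the centre in 0%. The other 75 alternative values of the share found and 23 of place, GC and gene length moved by less than the replicate spread or counting interval. Of these 75, 26 left out a replicate. With 2 replicates, such a value always lies within their SD of the mean, so these 26 could not have moved and are no check. A further 13 took the domains from 10M replicate 2, which are the same overlapping pairs, and gave the main value in each group. The fold filter on both 10M libraries kept 363 of the 374 domains, so its values could move little. Both are weak checks. Leaving out a replicate gave the other replicate's value, from 3.21% to 6.68% at 0.5M up to 59.1% to 74.1% for 1 mg tissue. Leaving out a 10M library was not run, since the definition needs both. The count of domains found in every library moved from 3 to 20 without the 0.5M, 1M and 20K nuclei libraries.

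With recovered library sizes, 13 intervals were called for CUT&Tag, 627 for eChIP, 202 for 20K nuclei and 61 for 14 cycles, as these shift all intervals one way. The median over all intervals for CUT&Tag moved to -1.04, and for 14 cycles to -0.19. DESeq2 called 116 for eChIP, 136 for 1 mg tissue and 4 for 20K nuclei. Leaving out a replicate left 2 to 4 calls for CUT&Tag, 167 to 252 for eChIP, 267 to 296 for 1 mg tissue, 4 to 26 for 20K nuclei and 0 for 14 cycles. A count minimum of 10 removed no interval. AT3G11860 reversed to -0.06 with recovered library sizes. With the replicate number as a block, 4 intervals were called for CUT&Tag and 40 for 20K nuclei, 250 for eChIP, 413 for 1 mg tissue and 0 for 14 cycles. Same-numbered replicates shared only a number, with correlations of their deviations of 0.03 for 1 mg tissue, 0.004 for 20K nuclei, 0.01 for 14 cycles, -0.20 for eChIP and -0.23 for CUT&Tag. The crossed pairing, chosen after seeing the data, called 320 for eChIP and 8 for CUT&Tag. The cause of the other shifts was not tested. Narrow domains were found less often than arbitrary windows in both 0.5M libraries, 1M replicate 1 and 20K nuclei replicate 1, so detection there cannot be told from the covered length.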
